A study of Mus musculus with 48 samples.

Results

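The genes described here are 44 neighbours on mouse chromosome 15 that lie on the centromere side of Col14a1, the gene of the collagen XIV chain. They were chosen as a named list, by Entrez gene ID, from a stretch that began at the start of Dap (position 31224385, GRCm38) and ended at the end of Ebag9 (position 44641538). Col14a1 does not adjoin this stretch and starts farther along, at position 55307644. The list was chosen by map position and with the measured KO against WT differences over all 6 times known, so that difference is given below as a description. The word called marks members past a threshold of the fit across all genes, and for this difference no inference about the members is drawn from it. All 44 were among the 27179 rows of the deposited count table, and 42 were among the 17068 genes with enough reads to be tested. Osr2 and Cthrc1 were the members below that filter.

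The data were bulk RNA sequencing libraries of epidermal cell suspensions from skin of mice aged 47 weeks. Per the labels, 24 libraries were ColXIV KO and 24 were ColXIV WT, with 4 biological replicates of each genotype at each of 6 Zeitgeber times, ZT0, 4, 8, 12, 16 and 20, which count hours from lights on. How the ColXIV KO allele was built, its strain of origin and the sex of the mice are not stated in the labels. RNA was selected for poly(A) tails and made into stranded libraries, and nothing in the labels says whether each replicate was a single mouse, so p-values measure the spread between these libraries.

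Genes that lie side by side on a chromosome are inherited together. When an allele is carried by crossing into another strain, a flanking stretch of the donor chromosome travels with it until recombination separates them. Divergent gene pairs, which start close together and run apart, can share the promoter between them. The members themselves do unrelated work in the cell, from Wnt reception to the folding of cytosolic proteins.

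Some facts of the whole series bear on every value below. Library totals ran from 35.6 to 43.7 M counts, with a median of 40.7 M. Col14a1 itself was higher in the libraries labelled KO, at 45.3 to 80.1 CPM (read counts relative to the TMM-scaled library total), against 0.261 to 4.13 CPM in the libraries labelled WT, which is opposite to a loss of the transcript. Every direction is therefore stated by label. Xist reads divided the libraries into those with and those without Xist, 9 and 15 under the KO label and 15 and 9 under the WT label. WT ZT4 replicates 3 and 4 and WT ZT16 replicate 2 stood apart in Gm5481, a copy of Rpl30 on chromosome 16, at 9.64, 14.1 and 13.3 CPM against 0.216 CPM or less in the other 21 libraries labelled WT. The 8 keratinocyte markers summed to a median of 39868 CPM under the KO label and 37850 CPM under the WT label. The 8 fibroblast and dermis markers summed to medians of 345 CPM in KO and 366 CPM in WT, with ranges of 237 to 490 CPM in KO and 237 to 594 CPM in WT. Of the 4 endothelial markers Cdh5 and Kdr were too low to test. The 2 tested summed to a median of 1.96 CPM (1.2 to 3.06) in KO and 1.87 CPM (0.969 to 3.11) in WT. In bulk RNA, fewer cells of a type and less RNA per cell cannot be told apart. Apart from a refit with a term for fibroblast markers, given at the end, the part of cell make-up in the results was not tested.

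Of the members, 2 divergent pairs had a start-to-start stretch covered by RefSeq promoter sequences (GRCm38.p6), and in each pair 1 partner was called lower in libraries labelled KO and the other was not called. They are printed because the partners of a pair start from the same stretch. The stretch between Cct5, on the minus strand, and Atpsckmt, on the plus strand, is chr15:31601847-31602115 and has 269 bases. The stretch between Snhg18, on the minus strand, and Sema5a, on the plus strand, is chr15:32244663-32244812 and has 150 bases. Both are written on the plus strand, and capitals mark the GC box, GGGCGG on either strand.
Cct5 to Atpsckmt: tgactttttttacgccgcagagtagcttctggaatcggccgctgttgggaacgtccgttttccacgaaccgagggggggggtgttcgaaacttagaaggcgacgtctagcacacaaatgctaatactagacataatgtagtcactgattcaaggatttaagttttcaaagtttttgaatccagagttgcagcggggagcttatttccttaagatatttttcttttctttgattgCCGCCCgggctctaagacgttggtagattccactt
Snhg18 to Sema5a: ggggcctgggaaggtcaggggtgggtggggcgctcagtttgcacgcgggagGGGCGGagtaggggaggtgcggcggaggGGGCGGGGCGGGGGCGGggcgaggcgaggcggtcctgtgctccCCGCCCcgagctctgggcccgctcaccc
The first stretch was 45.0% G or C and held 1 GC box, and the second was 79.3% G or C and held 5, some of them side by side. Promoters of 300 bases were matched for 5 members, namely Dap, Cct5, Atpsckmt, Snhg18 and Sema5a. Both stretches between partners are shorter than 300 bases, so promoters of a pair share sequence and the 5 are not separate. All 5 held a GC box, as did 35.7% of 32851 mouse promoters of the same length, a motif added after the sequences were seen. None of the 5 held the E-box CACGTG bound by the clock factors CLOCK and BMAL1 (7.15% of all promoters), the TEAD site CATTCC (14.7%), a D-box, TTATGTAA or TTACGTAA (1.06%), or the ROR element that REV-ERB and ROR receptors bind (0.219%), each searched on both strands.

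Cct5, a subunit of the cytosolic chaperonin TRiC, averaged 197 ± 14.9 CPM in KO and 194 ± 20.2 CPM in WT (SD, n = 24 each), a log2 fold change of 0.03 ± 0.03 (KO label over WT label, ± SE). Its divergent neighbour Atpsckmt, a mitochondrial lysine methyltransferase of ATP synthase subunit c, averaged 7.92 ± 0.973 CPM in KO and 10.3 ± 1.03 CPM in WT, a log2 fold change of -0.39 ± 0.04. Snhg18, a host gene of small nucleolar RNAs, had a log2 fold change of -1.08 ± 0.10, while Sema5a, a transmembrane semaphorin that guides axons, stood at 76.3 ± 8.85 CPM in KO and 76.7 ± 13.5 CPM in WT, a log2 fold change of -0.00 ± 0.05. The list held further close pairs. Rida and Pop1 start 65 bases apart and Slc25a32 and Dcaf13 154 bases apart, and none of these 4 was called. Nudcd1 (-0.31 ± 0.05) and Eny2 (0.02 ± 0.03) overlap head to head by 226 bases on opposite strands. Polr2k (-0.73 ± 0.06) and Spag1 (-0.05 ± 0.06) overlap by 784 bases on the same strand, and how reads in such overlaps were assigned is not stated in the labels.

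Averaged over the 6 times, 20 of the 42 tested members were called between the labels, 11 higher and 9 lower in KO, where a call is an adjusted p under 0.05 in the edgeR fit across all genes. Over all 17068 genes 0.34% were called, 0.193% higher and 0.146% lower, and since this contrast chose the members nothing is read from their larger share. The median absolute log2 fold change was 0.10 over the members and 0.04 over all genes tested, and the signed medians were 0.01 and -0.00. Of the members 10 had an absolute log2 fold change of at least 0.5, as did 1.31% of all genes, and 21 lay under 0.1. The differences therefore ran from large to none among close neighbours, as the plot of fold change along the chromosome shows.

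**Figure D1:**
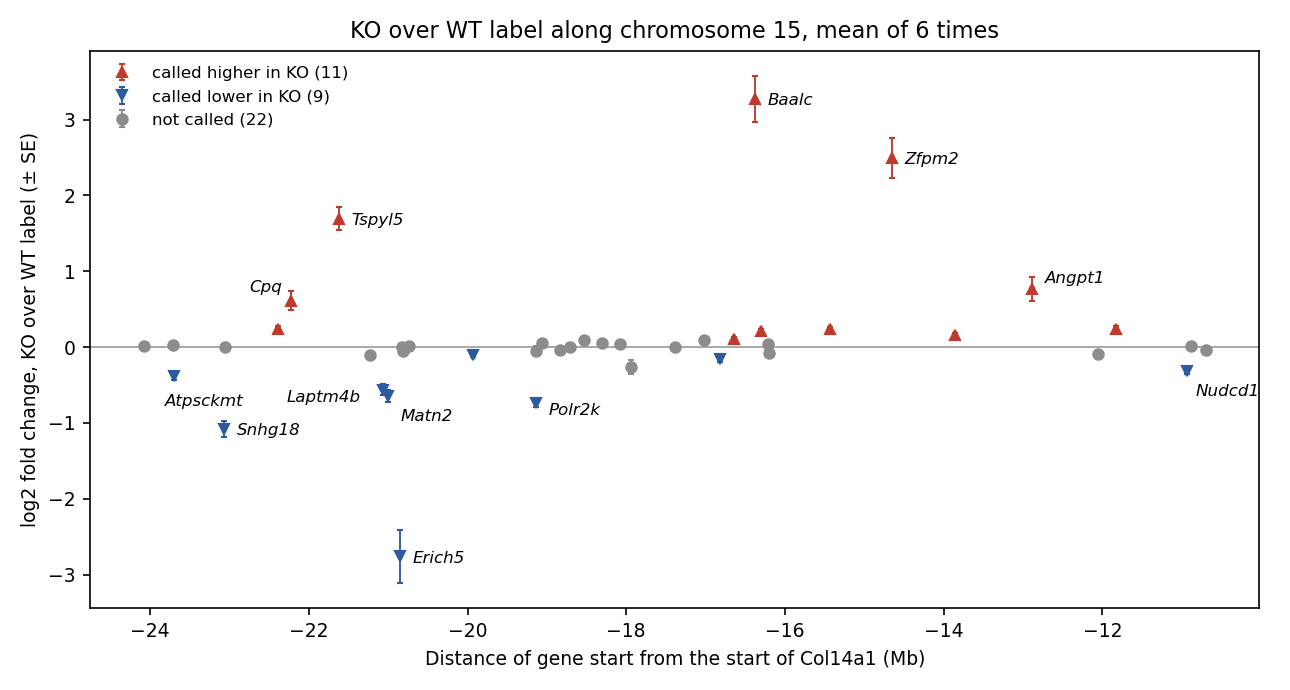
Log2 fold change (KO label over WT label, mean of 6 times, bars ± SE) of the 42 tested members against the distance of each gene start from the start of Col14a1, in Mb. Red triangles are the 11 members called higher, blue triangles the 9 called lower and grey circles the 22 not called, and Baalc at 3.27 and Erich5 at -2.76 are the extremes.

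In map order from the centromere side, the 20 called members fell into runs of like sign, with 4 changes of sign over 19 steps. Atpsckmt and Snhg18 were lower in KO, and Sdc2, Cpq and Tspyl5 were higher. Laptm4b, Matn2, Erich5, Vps13b, Polr2k and Azin1 followed as lower, then Atp6v1c1, Baalc, Fzd6, Lrp12, Zfpm2, Oxr1, Angpt1 and Emc2 as higher, and Nudcd1 closed the stretch as lower. The runs hold for the listed members alone. Of 11 other tested rows in the same stretch 3 were called, and Stk3, which encodes the Hippo kinase MST2, was higher in KO (0.60 ± 0.05) inside the run of lower members. Rpl30, a ribosomal protein gene, was lower (-0.53 ± 0.06). 9430069I07Rik, which lies within Matn2 on the opposite strand over 8822 bases, was lower as well (-0.55 ± 0.13). Overlap of their exons was not checked, and reads in a shared exon cannot be told apart if strand was not used. At the edges, Dap was at 0.01 ± 0.04 and Ebag9 at -0.04 ± 0.03, and the nearest tested genes outside were Ctnnd2 at -0.38 ± 0.14 and Sybu at 0.05 ± 0.08, neither called.

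Among 7 members that act as ligands, receptors or matrix, 4 were called higher in KO, 1 was called lower, Sema5a was not called and Cthrc1 was not tested. Angpt1, the ligand of the endothelial receptor Tie2 (chromosome 15, 42424667 to 42676977), ran from 1.6 to 6.38 CPM with a median of 2.95 in libraries labelled KO, against 0.736 to 3.56 CPM with a median of 1.74 in libraries labelled WT. Most KO libraries were above the WT median, and the ranges overlapped. The log2 fold change was 0.76 ± 0.16, from 0.11 at ZT20 to 1.12 at ZT12. Matn2, a matrilin that joins filaments of the extracellular matrix (34306681 to 34436242), ran from 8.53 to 28.5 CPM with a median of 14.5 in KO, against 15.5 to 34.6 CPM with a median of 24.6 in WT. Its ranges overlapped widely, and its log2 fold change was -0.65 ± 0.08.

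Fzd6, the Wnt receptor that orients hairs in mouse skin, averaged 131 ± 11.1 CPM in KO and 112 ± 8.85 CPM in WT, a log2 fold change of 0.22 ± 0.03. Sdc2, a heparan sulfate proteoglycan that presents growth factors, averaged 24.1 ± 2.83 CPM in KO and 20.3 ± 1.92 CPM in WT (0.24 ± 0.04). Lrp12, a member of the low-density lipoprotein receptor family, averaged 32.4 ± 2.81 CPM in KO and 27.4 ± 1.94 CPM in WT (0.24 ± 0.03). These 3 cell-surface genes were well expressed, and their shifts were small beside those of the members near 1 CPM. Cthrc1, a secreted glycoprotein, had 0 to 7 reads per library in KO (57 in all) and 1 to 14 in WT (115 in all), too few for the filter.

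Among 8 members of transcription and chromatin, 2 were called higher, 1 was called lower and 4 were not called. Zfpm2, which encodes the GATA cofactor FOG2 (40655042 to 41104592), ran from 0.225 to 2.25 CPM with a median of 0.813 in KO, against 0 to 0.503 CPM with a median of 0.156 in WT. The low end of KO overlapped the high end of WT, and the log2 fold change was 2.49 ± 0.26. Tspyl5, of the nucleosome assembly protein family (33683875 to 33687883), ran from 0.651 to 2.66 CPM with a median of 1.64 in KO, against 0.0766 to 1.69 CPM with a median of 0.415 in WT. The WT libraries inside the KO range were the 3 that stood apart, at 1.69 CPM in ZT4 replicate 3, 0.839 CPM in ZT4 replicate 4 and 1.09 CPM in ZT16 replicate 2, and the other 21 reached no more than 0.601 CPM. The log2 fold change of Tspyl5 was 1.69 ± 0.15 with all libraries and 1.93 without those 3.

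Polr2k, a small subunit shared by RNA polymerases I, II and III (36174010 to 36177012), ran from 4.30 to 7.46 CPM with a median of 5.33 in KO, against 6.71 to 13.2 CPM with a median of 8.94 in WT. Without the 3 libraries that stood apart the WT range began at 7.46 CPM, so the groups met and did not overlap. Its log2 fold change was -0.73 ± 0.06. With all 48 libraries no member was free of overlap between the labels, and with 24 against 21 Tspyl5 and Polr2k were, against 0.0117% and 0.0352% of all genes.

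The transcription members that were not called had log2 fold changes from 0.02 to 0.09. They were Grhl2, a grainyhead factor of the epithelial barrier, at 115 ± 7.16 CPM in KO and 112 ± 9.01 CPM in WT, Klf10, a Krüppel-like factor induced by TGF-beta, Zfp706, a small zinc finger protein, and Eny2, a subunit of the SAGA and TREX-2 complexes. Osr2, an odd-skipped factor, had 26 reads over the KO libraries and 31 over the WT libraries and was not tested.

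Among 5 members of RNA processing and translation, Snhg18 (32240568 to 32244662) was called lower and 4 were not called. Snhg18 ran from 0.926 to 2.5 CPM with a median of 1.33 in KO, against 1.79 to 4.51 CPM with a median of 2.77 in WT, and the ranges overlapped by a few libraries. The abundant translation genes differed by less than the SD between libraries. Pabpc1, the poly(A)-binding protein, averaged 543 ± 41.2 CPM in KO and 541 ± 58.9 CPM in WT, and Eif3e, a subunit of initiation factor eIF3, averaged 189 ± 22.3 CPM in KO and 200.6 ± 30.7 CPM in WT. Pop1, of RNase P and RNase MRP, and Dcaf13, which takes part in ribosomal RNA processing, had log2 fold changes of -0.06 and -0.07.

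Among 7 members of mitochondria and metabolism, 2 were called higher, 2 were called lower and 3 were not called. Cpq, a carboxypeptidase, averaged 1.02 ± 0.271 CPM in KO and 0.673 ± 0.227 CPM in WT (0.61 ± 0.13), and Oxr1, which protects cells from oxidative damage, averaged 89.2 ± 6.25 CPM in KO and 79.9 ± 4.24 CPM in WT (0.16 ± 0.03). Azin1, the antizyme inhibitor that spares the polyamine enzyme ornithine decarboxylase, averaged 66.2 ± 5.54 CPM in KO and 74.3 ± 9.72 CPM in WT (-0.16 ± 0.03), and Atpsckmt is given above. Slc25a32, a mitochondrial carrier linked to folate, Rida, an imine deaminase, and Rrm2b, the p53-induced subunit of ribonucleotide reductase, lay between -0.00 and 0.04.

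Among 7 members of protein folding and membrane traffic, 2 were called higher, 3 were called lower and 2 were not called. Laptm4b, a lysosomal membrane protein, averaged 44.8 ± 8.43 CPM in KO and 66.0 ± 10.8 CPM in WT, a log2 fold change of -0.56 ± 0.07. Nudcd1, a NudC-domain protein, averaged 21.1 ± 2.5 CPM in KO and 26.2 ± 3.53 CPM in WT (-0.31 ± 0.05), and Vps13b, a lipid transfer protein of the Golgi, averaged 98.6 ± 4.90 CPM in KO and 106 ± 7.39 CPM in WT (-0.11 ± 0.02). Emc2, of the endoplasmic reticulum membrane complex, averaged 33.1 ± 3.28 CPM in KO and 28 ± 3.51 CPM in WT (0.24 ± 0.04), and Atp6v1c1, a subunit of the vacuolar proton pump, averaged 47.2 ± 2.07 CPM in KO and 43.8 ± 2.71 CPM in WT (0.11 ± 0.02). Cct5 and Nipal2, of a family of magnesium transporters, were not called.

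The other 10 members held both extremes and 8 genes that were not called. Baalc, a gene known from brain and acute leukaemia (38933909 to 38951264), ran from 0.0973 to 3.02 CPM with a median of 0.893 in KO, against 0 to 0.767 CPM with a median of 0.0965 in WT. The highest WT value belonged to ZT4 replicate 4, and the other 21 libraries labelled WT reached 0.342 CPM. The log2 fold change was 3.27 ± 0.30, resting on 986 reads over the KO libraries and 124 over the WT libraries. Erich5, of no well-known function (34453312 to 34473892), ran from 0 to 0.941 CPM with a median of 0.0983 in KO, against 0.124 to 2.77 CPM with a median of 0.859 in WT. Its ranges overlapped in part, and its log2 fold change was -2.76 ± 0.35, from 192 reads over the KO libraries and 1073 over the WT libraries.

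The 8 uncalled genes of that set had log2 fold changes from -0.26 to 0.09. Ywhaz, the 14-3-3 zeta adaptor, was the most abundant member at 810 ± 45.8 CPM in KO and 760 ± 58.3 CPM in WT (0.09 ± 0.03). Mtdh, also called metadherin, stood at 93.2 ± 3.96 CPM in KO and 99.7 ± 7.10 CPM in WT (-0.10 ± 0.02), and Ncald, the calcium sensor neurocalcin delta, at 3.24 ± 0.720 CPM in KO and 3.88 ± 0.889 CPM in WT (-0.26 ± 0.10). Rnf19a, a ubiquitin ligase, Spag1, an assembly factor of dynein arms, Dap, Ebag9 and Ankrd46 were within 0.05 of 0 on the log2 scale.

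**Figure D2:**
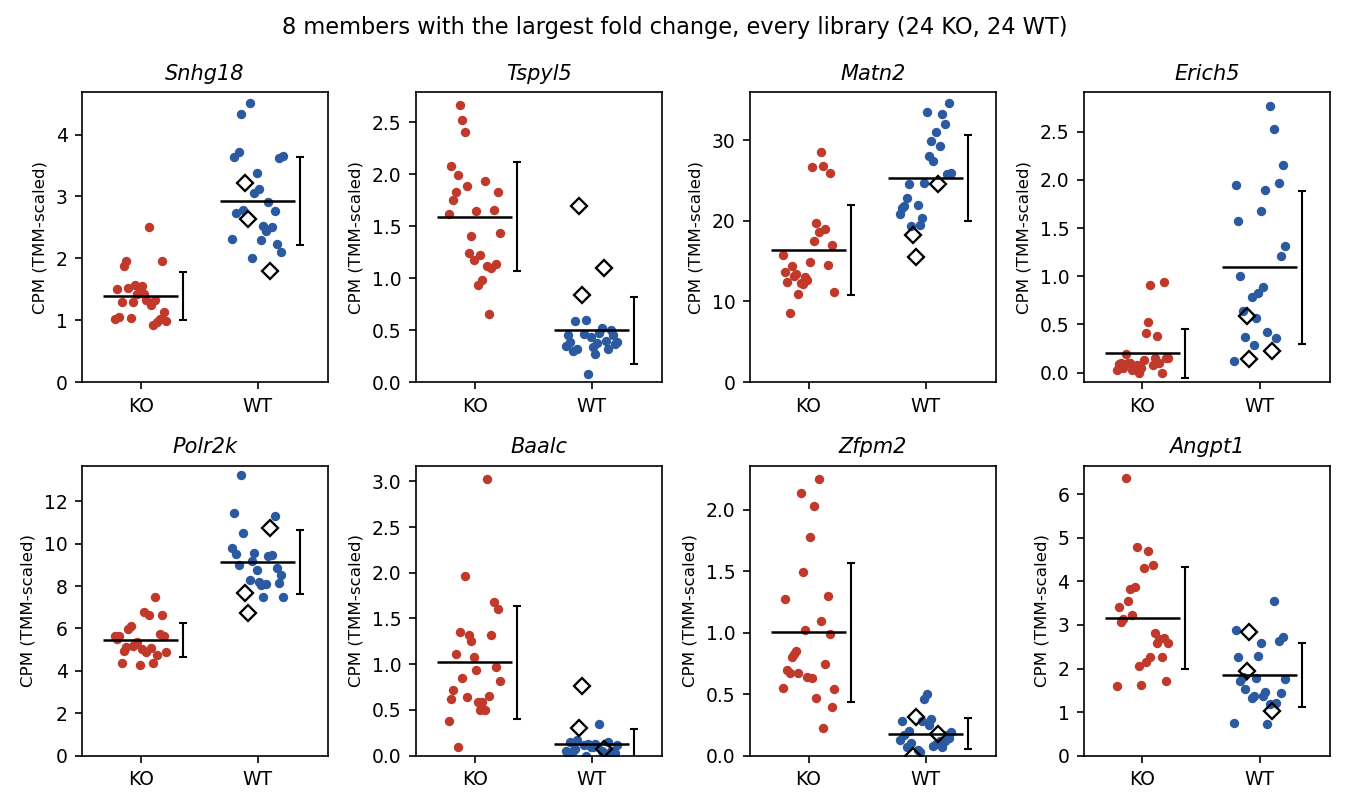
TMM-scaled CPM of the 8 members with the largest absolute fold change in each of 24 libraries labelled KO (red, left) and 24 labelled WT (blue, right), with the mean (line) and SD (bar) beside the points. Open diamonds are WT ZT4 replicates 3 and 4 and WT ZT16 replicate 2, which in Tspyl5 lie above all other libraries labelled WT.

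The largest differences belonged to members of low level. Per kilobase of annotated exon, Ywhaz was the highest of the 41 tested members with a length, at 197 CPM per kb in KO and 185 CPM per kb in WT, followed by Pabpc1 at 83.1 in KO and 82.7 in WT and Cct5 at 71.4 in KO and 70.1 in WT. In KO the 3 lowest were Erich5 at 0.0833, Zfpm2 at 0.105 and Cpq at 0.202 CPM per kb, and in WT they were Zfpm2 at 0.0187, Baalc at 0.0305 and Tspyl5 at 0.125 CPM per kb. Of the called members 4 averaged under 1 CPM over all libraries, and for these the values rest on few reads per library.

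The difference between labels had the same sign at all 6 times for 25 members, the 20 called ones among them, against 3.54% of all genes. These differences come from the labels and libraries by which the members were chosen, so the count is a description and nothing is read from it. Values at single times scattered around the average. Tspyl5 ran from 1.04 at ZT16 to 2.28 at ZT0 (SE 0.35 to 0.39), Polr2k from -0.92 at ZT16 to -0.45 at ZT12 (SE 0.15) and Snhg18 from -1.34 at ZT0 to -0.61 at ZT12. Baalc ran from 1.68 at ZT4 to 4.63 at ZT20 and Erich5 from -4.03 at ZT0 to -1.31 at ZT12, with SE of 0.63 to 1.01 at these low levels. The WT groups of ZT4 and ZT16 held the 3 libraries that stood apart. At ZT16 Tspyl5 was at 1.09 CPM in WT replicate 2 and at 0.315 to 0.525 CPM in the other WT libraries. At ZT4 Baalc was at 0.306 and 0.767 CPM in WT replicates 3 and 4 and at 0.074 and 0.173 CPM in the others. WT ZT16 replicate 2 lay within the other WT values of ZT16 for Baalc (0.0746 CPM) and Polr2k (10.8 CPM). The colour plot by time shows the same sign across each called row.

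**Figure D3:**
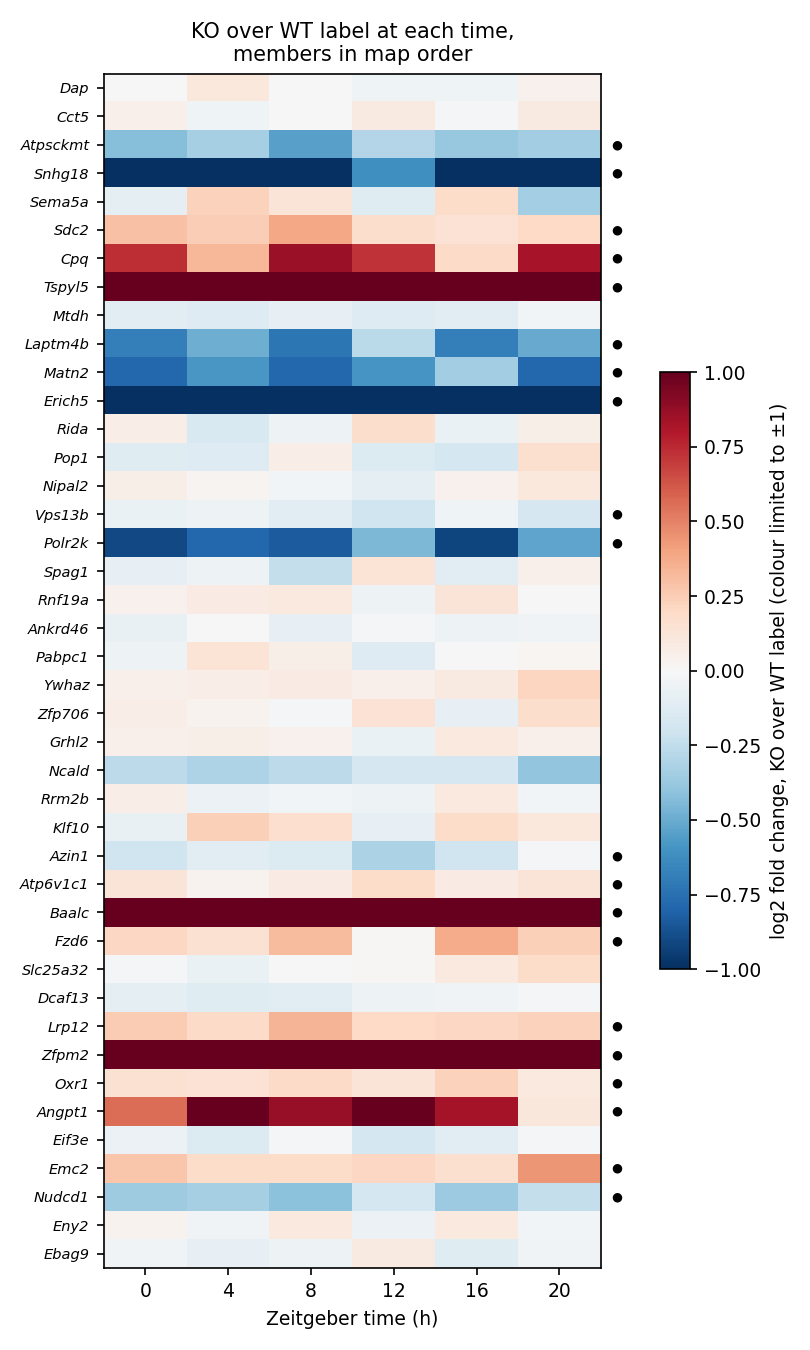
Log2 fold change (KO label over WT label) of the 42 tested members, in map order from top to bottom, at each of 6 Zeitgeber times in hours. Red is higher in KO and blue lower, the colour is limited to ± 1, and a dot marks the 20 members called in the average over times, each of like sign throughout.

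Whether the difference depended on the time of day was tested by an F test of equality of the 6 differences. The averaged difference does not fix the outcome of that test, though the members were chosen with these data known. No member was called at an adjusted p under 0.05, as was 0.0% of all genes, in edgeR, DESeq2 and limma-voom alike. At an unadjusted p under 0.05 there were 3 members, against 6.1% of all genes. The smallest was that of Fzd6 (adjusted p = 0.615 in edgeR), and it did not pass. Fzd6 averaged 140 ± 18.7 CPM in KO and 108 ± 7.10 CPM in WT at ZT16, but 123 ± 7.42 CPM in KO and 122 ± 4.29 CPM in WT at ZT12. Sema5a (adjusted p = 0.676 in edgeR) and Baalc (adjusted p = 0.750 in edgeR) did not pass either. A test of the difference in 24 h rhythm between labels also called no member, as in DESeq2 and limma-voom, and 0.0% of all genes. Unadjusted, 1 member and 2.31% of all genes were under 0.05. The 3 smallest p, of Baalc (0.0334), Sema5a (0.103) and Nipal2 (0.112), were all at 1 after adjustment in edgeR.

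Independently of the label, many members changed over the day. In the edgeR test of equal time means over both labels, 19 of 42 members were called, against 45.0% of all genes, and in the fit of a 24 h cosine 13 were called, against 27.2%. Both shares are close to the background. The median amplitude, the log2 distance from mean to peak, was 0.06 over the members and 0.08 over all genes. Of the 20 members called between labels 9 were called for time and 5 for rhythm.

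Matn2 had the clearest daily course. At ZT8 it stood at 12.3, 12.2, 13.1 and 12.6 CPM in the 4 libraries labelled KO, against 22, 19.5, 20.3 and 24.7 CPM in the 4 labelled WT. At ZT16 it stood at 18.6, 28.5, 26.7 and 18.9 CPM in KO, against 31.0, 24.6, 29.3 and 33.2 CPM in WT. Every ZT16 library of KO was above every ZT8 library of KO, while in WT 1 ZT16 library lay just under the highest at ZT8. The amplitude over both labels was 0.41 ± 0.04 with a peak at 15.8 h, a fold of 1.76 from trough to peak (edgeR adjusted p = 1.2e-07 for rhythm and 6.5e-06 for time). The amplitudes fitted within each label were 0.46 in KO and 0.35 in WT, and their difference did not pass (unadjusted p = 0.508 in edgeR).

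Erich5 peaked close to Matn2, at 16.6 h, with an amplitude of 0.95 ± 0.17 (edgeR adjusted p = 0.0111), and at ZT12 it averaged 0.491 ± 0.323 CPM in KO and 1.22 ± 0.687 CPM in WT, against 0.0438 ± 0.0314 CPM in KO and 0.614 ± 0.247 CPM in WT at ZT8 (SD, n = 4 each). With limma-voom it did not pass, at an adjusted p of 0.110. Slc25a32 peaked at 16.2 h with an amplitude of 0.10 ± 0.03 (edgeR adjusted p = 0.0103), a call lost without KO ZT16 replicate 2, at 0.0526. Sema5a peaked at 12.5 h with an amplitude of 0.13 ± 0.03 (edgeR adjusted p = 0.034), and that call was lost in 14 of the 48 fits that left out 1 library, with adjusted p up to 0.0840 without WT ZT12 replicate 3.

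Other members peaked by day or near lights on. Sdc2 peaked at 4.64 h with an amplitude of 0.12 ± 0.03 (edgeR adjusted p = 0.00135), at 27.1 ± 1.98 CPM in KO and 22.8 ± 1.66 CPM in WT at ZT4 and 21.8 ± 1.64 CPM in KO and 19.2 ± 1.24 CPM in WT at ZT12. Dap, a mediator of cell death and autophagy signals, peaked at 1.12 h with an amplitude of 0.12 ± 0.03 (edgeR adjusted p = 0.00212). Spag1 peaked at 24 h with an amplitude of 0.20 ± 0.04 (edgeR adjusted p = 0.00295), and Eny2 at 9.35 h with an amplitude of 0.09 ± 0.01 (edgeR adjusted p = 0.00331). The peak times of these members were spread over the day, with jackknife SE of 0.424 to 0.947 h among the 8 named.

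Azin1 and Cct5 were called for time and not for a 24 h rhythm. Azin1 averaged 70.3 ± 4.76 CPM in KO and 87.5 ± 8.07 CPM in WT at ZT12, against 60.2 ± 3.51 CPM in KO and 66.1 ± 2.67 CPM in WT at ZT8 (edgeR adjusted p = 0.000405 for time, 0.143 for rhythm). Cct5 was highest at ZT4 and ZT16, at 204 ± 2.57 and 214 ± 11.6 CPM in KO and 210 ± 14.3 and 216 ± 22.9 CPM in WT, and lowest at ZT12, at 186 ± 10.6 CPM in KO and 175 ± 14.5 CPM in WT (edgeR adjusted p = 0.000749 for time, 0.716 for rhythm). Emc2 was called for time at an adjusted p of 0.00402 in edgeR.

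**Figure D4:**
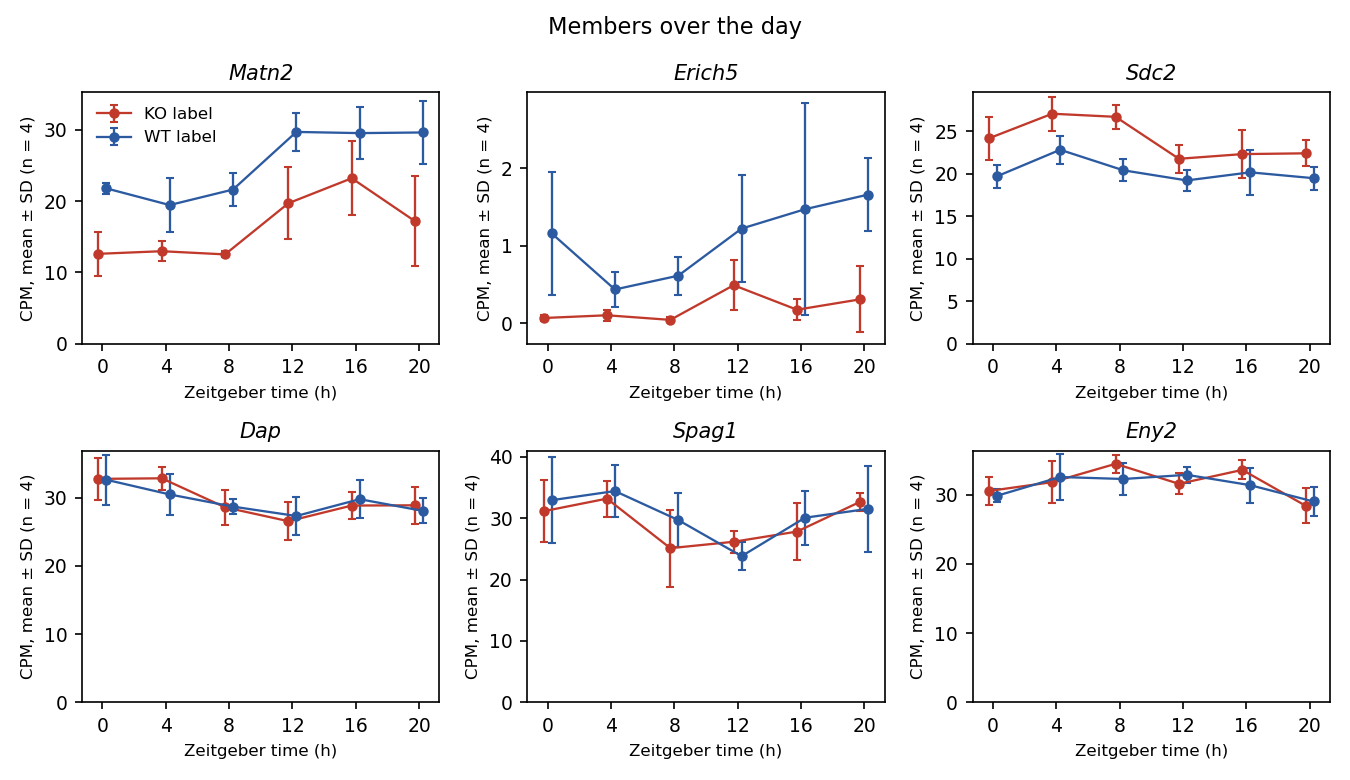
TMM-scaled CPM (mean ± SD, n = 4) of 6 members with a called 24 h rhythm against Zeitgeber time in hours, in libraries labelled KO (red) and WT (blue). Matn2, Erich5 and Sdc2 keep a gap between the label means at every time, while the lines of Dap, Spag1 and Eny2 cross or run together.

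The 3 libraries labelled WT that stood apart lay near the KO median in some members. Of the 20 called members, WT ZT4 replicate 4 was beyond the range of the other 21 libraries labelled WT, towards KO, in 8, WT ZT4 replicate 3 in 3 and WT ZT16 replicate 2 in 3. A like count for each of the other 21, taken against the rest of the 21, ran from 0 to 5 with a median of 1. WT ZT16 replicate 4 had the 5. Barring ties, 1 of the 21 is furthest towards KO in each member, so the average of this count is fixed by how it is taken. WT ZT4 replicate 4 lay inside the KO range in 19 of the 20, WT ZT4 replicate 3 in 15 and WT ZT16 replicate 2 in 14. For each of the other 21, that number ran from 3 to 13 with a median of 10. Positions were taken on the log2 scale, where 0% is the median of the other 21 and 100% the KO median, and their course along the map differed between the 3. WT ZT16 replicate 2 ran from -147% for Nudcd1 to 101% for Atpsckmt, with a median of 13.5%, and was at 50% or more in 8 of the 20. From Atpsckmt to Vps13b in map order all its positions were above 0%, with Sdc2 at 18.3%, Tspyl5 at 71.2%, Matn2 at 8.6% and Erich5 at 68.7%. All its positions below 0% lay from Polr2k (-34.0%) onward. In that part only Atp6v1c1, at 51.9%, and Emc2, at 77.7%, were at 50% or more. WT ZT4 replicate 4 ran from 0.0541% for Lrp12 to 163% for Azin1, with a median of 73.8%, and was at 50% or more in 15. Its low positions included Snhg18 at 7.05% and Zfpm2 at 41.1%, and its high ones Sdc2 at 116% and Nudcd1 at 113%. WT ZT4 replicate 3 ran from -92.8% for Zfpm2 to 103% for Tspyl5, with a median of 33.0%, and was at 50% or more in 7. All 7 lay from Atpsckmt to Azin1 in map order, a part in which Snhg18 (-20.4%) and Laptm4b (-2.32%) were below 0%. From Atp6v1c1 to Nudcd1 its highest position was that of Baalc, at 47.8%. The number at 50% or more was not taken for the other 21. Col14a1 in these 3 libraries was at 2.47 CPM in ZT4 replicate 3, 0.719 CPM in ZT4 replicate 4 and 1.96 CPM in ZT16 replicate 2, within the range of the others. All 20 called members kept their sign and their call without the 3.

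**Figure D5:**
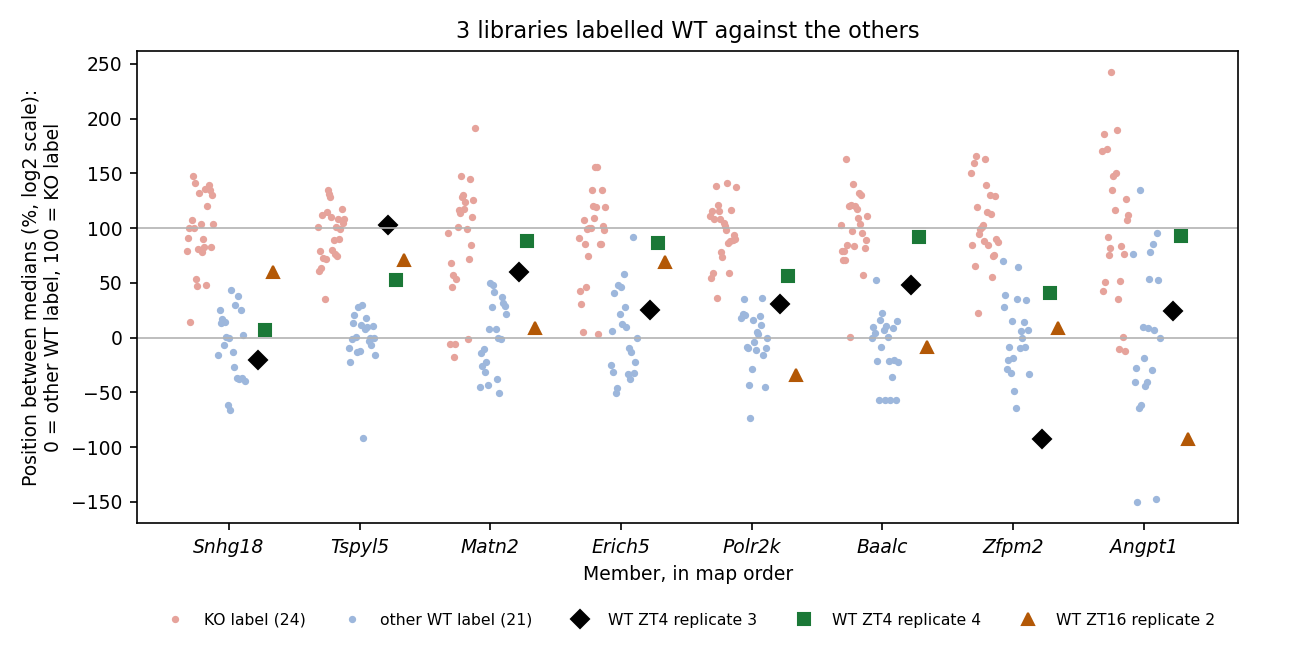
Position of each library between the median of the other 21 libraries labelled WT (0%) and the KO median (100%), on the log2 scale, for the 8 members with the largest fold change in map order. Pale red points are 24 libraries labelled KO, pale blue points the other 21 labelled WT, and the large symbols WT ZT4 replicate 3 (diamond), ZT4 replicate 4 (square) and ZT16 replicate 2 (triangle), with all 3 above the other WT points in Tspyl5.

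Values within the Xist types are set beside the pooled ones because the types were unevenly divided between the labels. In libraries with Xist, 11 of the members were called, against 0.149% of all genes, and in libraries without Xist 10 were called, against 0.196%. The 11 were all among the 20 called in the full set, as were 9 of the 10, the other being Mtdh. The 20 called members had the same sign in both types. Tspyl5 was at 1.76 with Xist and 1.53 without, Polr2k at -0.68 and -0.77, Snhg18 at -0.99 and -0.89, Zfpm2 at 2.72 and 2.27 and Angpt1 at 0.86 and 1.09. Matn2 was at -0.67 with Xist and -0.44 without, Baalc at 2.91 and 2.64, and Erich5 at -2.30 and -1.26, which is the widest shift among the 8 on the log2 scale. Of the 20, 6 were called in neither type, namely Atp6v1c1, Azin1, Cpq, Emc2, Fzd6 and Vps13b. Angpt1, Lrp12 and Oxr1 were not called with Xist, and Erich5, Laptm4b, Matn2, Nudcd1 and Sdc2 were not called without. Of the 6 called in neither type, Cpq (0.82 with Xist and 0.31 without), Atp6v1c1 (0.11 and 0.05), Emc2 (0.22 and 0.13) and Vps13b (-0.11 and -0.08) had the smaller difference without Xist, and Azin1 (-0.16 and -0.23) and Fzd6 (0.17 and 0.22) the larger. For time, 3 members were called with Xist (16.5% of all genes) and 11 without (25.8%), and for rhythm 2 with Xist, Matn2 and Erich5 (10.2%), and 14 without (20.6%), where Cthrc1, which was too low to test in the full set, was 1 of the 14.

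Some counts are uncertain because other genes share sequence. Of the 44 members 15 had a transcript at least 95% identical over at least 200 bases to a transcript of another gene. Among the members with the largest differences these were Polr2k, with the gene model Gm46136 at 96.4% over 330 bases, and Angpt1, with Gm17473 at 100% over 653 bases. Laptm4b matched Gm6705 at 96.6% over 685 bases, and Nudcd1 matched 14 other genes over up to 366 bases, its overlapping neighbour Eny2 among them at 99.5% over 207 bases. None of Gm46136, Gm17473 and Gm6705 had enough reads to be tested.

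As a description of patterns left after the group means were removed, the log2 CPM of members was compared over the 48 libraries. The residuals of Polr2k were most alike to those of Matn2 (Pearson r = 0.51), Nudcd1 (0.50) and Laptm4b (0.46), which like it were lower in KO. Those of Tspyl5 were most unlike those of Matn2 (-0.39), Polr2k (-0.37) and Atpsckmt (-0.37). These points share library depth and the 3 libraries that stood apart, and no p is attached to them.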

How the data were processed

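The deposited values are raw counts per gene, keyed by Entrez ID and not normalised, in 48 libraries. The submitters' processing notes name GRCm38 (mm10), featureCounts, STAR 2.7.10a and Trim Galore, with no order. The annotation and the strand setting, which decide how reads of overlapping genes are assigned, could not be read from any label or header. Libraries were grouped by genotype label and time. Symbols and positions were matched by ID in RefSeq (25275 rows) or else GENCODE (18 rows). The remaining 1886 rows, with 4.65% of counts, were unnamed and kept in the fit.

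Counts were TMM-scaled (factors 0.919 to 1.07), filtered with filterByExpr over the 12 groups and fitted in edgeR 4.0.16 (glmQLFit robust, glmQLFTest) under R 4.3.3, with all 48 libraries sharing 1 estimate of spread per gene. Benjamini-Hochberg adjustment ran over all 17068 genes. Contrasts were KO minus WT averaged over times and at each time, equality of the 6 differences, equality of the 6 time means, and a 24 h cosine and sine, common or within label. Standard errors of amplitude and peak are jackknife errors over libraries. The fit was tested on simulated data. No replicate pair agreed within counting noise (smallest chi-square per degree of freedom 8.77).

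The members and lists were chosen with earlier results of these data known. By rule, library ranges were given for the 8 members with the largest averaged fold change. Up to 8 called members per time test were named, or the 3 smallest p where none passed, and up to 6 called other rows of the stretch. For likeness, the 3 largest absolute correlations with Tspyl5 and with Polr2k were named. Role groups and further members were chosen after values were seen. Motifs were counted in RefSeq promoters, and near copies were found with blastn 2.17.0 among GENCODE transcripts.

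Alternatives were DESeq2 1.42.0, limma-voom (limma 3.58.1), RLE size factors, no filter except 1 read in all, a stricter filter (1 CPM in 24 or more libraries), replicate number as a block, terms for sex-linked expression, a term for fibroblast markers, libraries with or without Xist only, omission of the 3 libraries labelled WT that stood apart, and omission of each library.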

Additional observations from a re-analysis of the deposited data

Results flagged for a closer look

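Among the 19 members named by rule in the comparisons, 228 groups of 4 libraries were searched for a library far from the other 3. The search flagged 9, where chance flags about 1 in 20 groups, or 11.4 here, so the number flagged is no more than chance gives. In libraries labelled KO, Snhg18 reached 1.96 CPM in 1 library at ZT20 with the others at 0.987 to 1.14 CPM, and Erich5 reached 0.941 CPM in 1 library at ZT20 with the others at 0 to 0.148 CPM. Polr2k fell out low in 1 library labelled KO at ZT0, at 4.38 CPM with the others at 5.51 to 5.66 CPM, and in 1 at ZT8, at 4.30 CPM with the others at 5.19 to 5.38 CPM. Angpt1 reached 4.36 CPM in 1 library labelled KO at ZT16 with the others at 2.58 to 2.83 CPM, and 3.56 CPM in 1 labelled WT at ZT16 with the others at 1.02 to 1.21 CPM. Baalc reached 0.342 CPM in 1 library labelled WT at ZT12 with the others at 0.0958 to 0.124 CPM. Azin1 reached 81.9 CPM in 1 library labelled WT at ZT20 with the others at 63.9 to 65.7 CPM, and Eny2 was at 28.9 CPM in 1 library labelled WT at ZT8 with the others at 33.1 to 33.9 CPM.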

How the results depend on the processing

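Against 20 members called between the labels, 19 for time and 13 for rhythm, libraries with Xist alone called 11, 3 and 2. Libraries without Xist alone called 10 between the labels, 9 of them among the 20, and 11 for time, and 14 for rhythm, Cthrc1 among them, which was not tested in the full set. Each type holds fewer libraries than the whole. The interaction was not fitted within either type, and WT ZT20 has no library without Xist. Leaving out each library in turn gave 19 to 21 members called between labels, 15 to 23 for time, 9 to 15 for rhythm, 23 to 28 with the same sign at all 6 times, and 0 to 0 for both the interaction and the difference in rhythm. Vps13b lost its call between labels in 20 of the 48 such fits and with the fibroblast term. The other 19 kept theirs in each of the 48 fits and with the fibroblast term. The 1 CPM filter removed Baalc, Cpq, Erich5 and Zfpm2 from the test and left 16 called. Replicate numbers, taken from the titles, showed no pairing of libraries (264 same-number pairs, correlations from -0.548 to 0.636, median 0.0368). The numbers in the library names differ in part from these, and pairing by them was not tested. With the title number as a block the same 20 members were called between labels, 20 for time and 12 for rhythm. No fold change of a member called between the labels changed sign in any of these fits. Without Xist, Ywhaz was at -0.01 and Zfp706 at -0.07, against 0.09 and 0.05 in all libraries, neither called. Depth limits the members near or under 1 CPM.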
